A study of Mus musculus with 12 samples.

Results

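Translation factors and tRNA synthetases were followed in mouse skin after a thermal injury. The genes were chosen by name: those whose annotated symbol begins with Eif or Eef (initiation and elongation factors and their regulators), and the aminoacyl-tRNA synthetases, whose symbols are a 1-letter amino acid code followed by "ars". This gave 61 of the 5599 genes that the array names through a probe set for 1 gene only, on 67 probe sets. They were 31 initiation factors, 5 elongation factors, 19 synthetases and 6 regulators. A gene was tested when a probe set exceeded the median intensity of all values, 475.55, on at least 3 arrays, which left 47 of the 61 genes among 3477 in all. One further probe set names Eif4a3 together with other genes and was left out.

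RNA of skin removed at 0 hours, 2 hours, 3 days and 14 days after the injury was hybridised to Affymetrix oligonucleotide arrays, with 3 arrays at each time and 12 in all. The labels give the tissue and the time but no strain, genotype, age, sex or number of animals. Whether the skin at 0 hours had been burnt is not stated. Nothing says that the repeats came from separate mice, so p-values measure the spread between these samples only, which may be technical.

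Protein synthesis begins when initiation factors bring the initiator tRNA and the small ribosomal subunit to the capped end of a messenger RNA. Elongation factors then deliver charged tRNAs and move the ribosome along, and the synthetases attach each amino acid to its tRNA. Cells under stress can slow the first step by phosphorylating the initiation factor eIF2, and growth signals can speed it through the cap-binding factors. Adult skeletal muscle, which lies as a thin sheet under mouse skin, uses its own form of elongation factor 1 alpha, Eef1a2, in place of the common form Eef1a1.

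Promoter sequences are shown because a group of synthetases shares a motif through which ATF4, the transcription factor of the eIF2 stress response, is known to act. Windows from 250 bases before to 50 bases after each start site were taken from RefSeq (GRCm38.p6) and were found for 48 of the 61 genes. The motif TGATGNAA, searched on both strands, was present in 5 of 13 synthetases with a window (38.5%), namely Aars, Gars, Iars, Tars and Yars. It was present in 1 of 27 initiation factors, Eif2s3x, and in 1219 of all 27025 genes with a window (4.51%). Each match below lies on the opposite strand, so that its reverse complement is seen, in capitals:
Aars, chr8:111033710-111033757, plus strand: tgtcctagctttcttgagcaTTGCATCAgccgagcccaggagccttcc
Gars, chr6:55037951-55037998, plus strand: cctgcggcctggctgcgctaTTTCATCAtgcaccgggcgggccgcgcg
Tars, chr15:11399659-11399693, minus strand: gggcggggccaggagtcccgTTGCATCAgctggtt
Eif2s3x, chrX:94212720-94212767, minus strand: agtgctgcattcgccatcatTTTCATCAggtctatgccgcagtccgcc

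Many messenger RNAs of the translation machinery begin with a run of pyrimidines through which growth signals control their translation. Only the exact annotated start was searched, so a run that begins nearby was missed. Genes without a match may therefore still have such a run. Of all genes with a window, 3.01% started with C followed by 4 bases each C or T, as did 2 of the 48 genes (4.17%). Both genes are initiation factors, and the run at the annotated start is in capitals:
Eif2s3x, chrX:94212637-94212681, minus strand: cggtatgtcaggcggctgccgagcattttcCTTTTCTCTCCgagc
Eif3f, chr7:108934385-108934429, plus strand: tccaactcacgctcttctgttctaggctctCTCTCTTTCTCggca
The E-box CACGTG lay in the windows of 9 of the 48 genes (18.8%), against 8.09% of all genes, and in that of Eef2 among the elongation factors. A match describes these letters and shows no binding.

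The 0 hours arrays differed from all later arrays in a member on the Y chromosome, and this bears on every comparison with 0 hours. Eif2s3y (Y:1010562-1049134) encodes the Y-linked copy of the gamma subunit of eIF2. Its intensity was 332.6, 441.6 and 398.6 at 0 hours and between 3.7 and 73.9 on the 9 later arrays. All 9 later values lay under the floor of 225.375, below which intensities were set to that value. The gene was thus at least 1.72-fold lower at each later time, with limma adjusted p of 0.00355, 0.00342 and 0.00355 in a fit of all 5599 genes without the filter. Because the floor replaced all 9 later values, these p-values hold no spread between the later arrays. Xist, the RNA that coats the inactive X chromosome and is made in female cells, read 32.7 to 52.3 at 0 hours and 65.4 to 607.6 later. All 3 values at 0 hours and 3 of the 9 later ones lay under the floor, and the fit without the filter did not call it (limma adjusted p = 0.644, 0.451 and 0.575). The X-linked helicase gene Ddx3x rose by 1.63 ± 0.40 at 2 hours, 1.45 ± 0.40 at 3 days and 1.35 ± 0.40 at 14 days on the log2 scale (limma adjusted p = 0.0279, 0.0262 and 0.0437 in the filtered fit). In the fit without the filter it was not called (adjusted p = 0.116, 0.115 and 0.147). Since no label gives the sex of the mice, sex and time after injury cannot be told apart in the comparisons with 0 hours. The log2 changes among 2 hours, 3 days and 14 days use no 0 hours array, although their standard errors and p-values come from the fit of all 12 arrays.

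**Figure D1:**
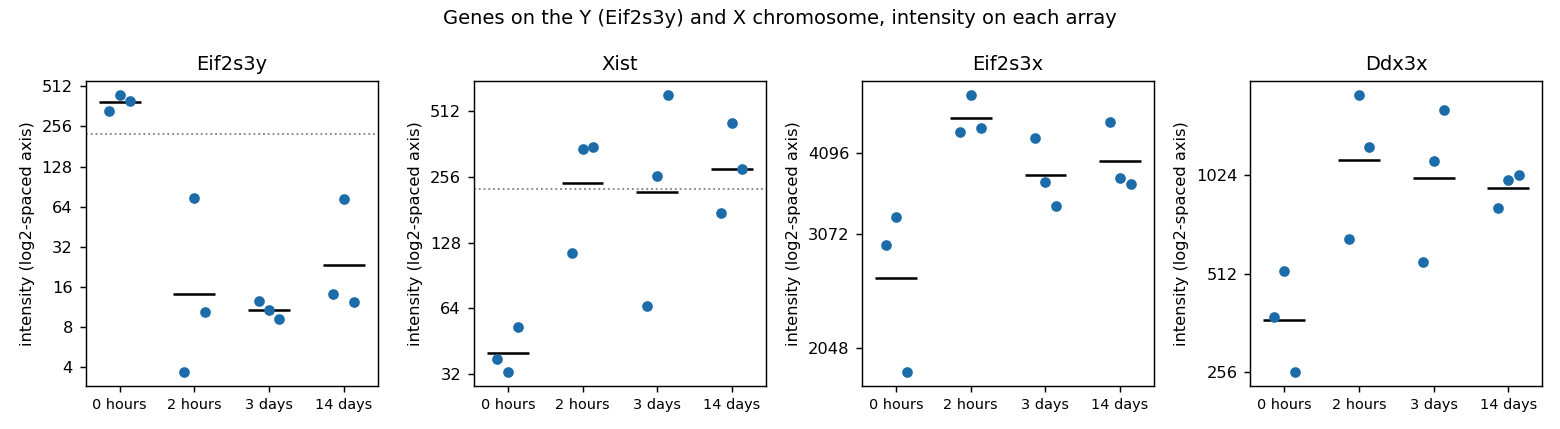
Intensity (log2-spaced axis) of Eif2s3y, Xist, Eif2s3x and Ddx3x on each of the 12 arrays by time point; points are arrays, bars are means of the log2 values, and the dotted line is the floor of 225.375. Eif2s3y lies above the floor at 0 hours only, and Xist lies at or under 52.3 at 0 hours and above that on all 9 later arrays.

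Other measures also moved with time. The log2 ratio of the 3′ to the 5′ Gapdh control probe sets, a measure of RNA quality, averaged 1.99 ± 0.29 in the 0 hours arrays and, in time order, 1.54 ± 0.46, 0.52 ± 0.50 and 0.21 ± 0.08 in the later ones (SD, n = 3 each). No 3 days or 14 days array reached the lowest 0 hours ratio of 1.71. A fit with this ratio as a covariate therefore cannot separate it from time. Arrays had medians of 448.4 to 496.4, and 0 hours replicate 3 correlated least with the others (mean Spearman 0.851). That array was the lowest of the 3 at 0 hours for 23 of the 47 members (48.9%) and for 46.1% of all genes tested. Keratinocyte markers were measured in the skin, with 15 of 18 tested, and they moved with time: 2 rose at 2 hours, 6 at 3 days and 8 at 14 days against 0 hours, and 0 fell. Their summed intensity was 95833 to 126207 at 0 hours, 126034 to 133460 at 2 hours, 159005 to 174681 at 3 days and 153896 to 261073 at 14 days. Of 14 fibroblast markers tested, 0 rose and 4 fell at 2 hours, 1 rose and 3 fell at 3 days, and 3 rose and 1 fell at 14 days. Their summed intensity was 148120 to 165588 at 0 hours and 93376 to 101459 at 2 hours. It was 97471 to 122601 at 3 days and 118903 to 159611 at 14 days. The part of either cell type in the changes of the members was not tested. In bulk samples such as these, fewer cells of a type and less RNA per cell cannot be told apart.

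Few members changed past the threshold, a Benjamini-Hochberg adjusted p under 0.05 in a limma fit of all 3477 genes. At 2 hours against 0 hours, 3 of the 47 rose and 0 fell, where 5.67% of all genes tested were called. At 3 days 1 rose and 1 fell (13.3% of all genes called), and at 14 days 1 rose and 0 fell (10.2% of all genes called). Between 2 hours and 3 days 1 member rose (9.4% of all genes called). Between 3 and 14 days limma called 0 members (3.39% of all genes called). An F-test of all 4 times together, also in limma, called Eif1a, Eif3a and Vars, 3 of 47 (6.38%), against 21.2% of all genes. At an unadjusted p under 0.05, 9, 14 and 17 of the 47 differed from 0 hours at 2 hours, 3 days and 14 days, against 22.3%, 29.8% and 28% of all genes. The step from 2 hours to 3 days gave 5 (25.3% of all genes) and that from 3 to 14 days 2 (11.7% of all genes). Groups did not overlap for 6, 15 and 20 members in the comparisons with 0 hours, where 23.4%, 28.6% and 29.1% of all genes did not. They did not overlap for 10 members between 2 hours and 3 days (35.2% of all genes) and for 7 between 3 and 14 days (19.7%). Fitted with only the arrays of the times compared, limma called 0 members at 2 hours, at 3 days and from 2 hours to 3 days. The members' share of calls was 6.38% at 2 hours, near the background, and below the background at the other times. At 2 hours, 3 days and 14 days, 38, 36 and 31 of the 47 had 95% intervals that lay within a 2-fold change in either direction.

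Changes of individual members against 0 hours stayed within about 1 on the log2 scale in either direction. Among initiation factors the median log2 change was 0.27 at 2 hours, 0.25 at 3 days and 0.39 at 14 days. Among synthetases it was 0.01, 0.10 and 0.14, and among the 4 elongation factors −0.01, 0.12 and 0.32. The medians of all genes tested were 0.05, 0.02 and 0.05. Each role had 0 to 3 called genes in each of these comparisons.

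**Figure D2:**
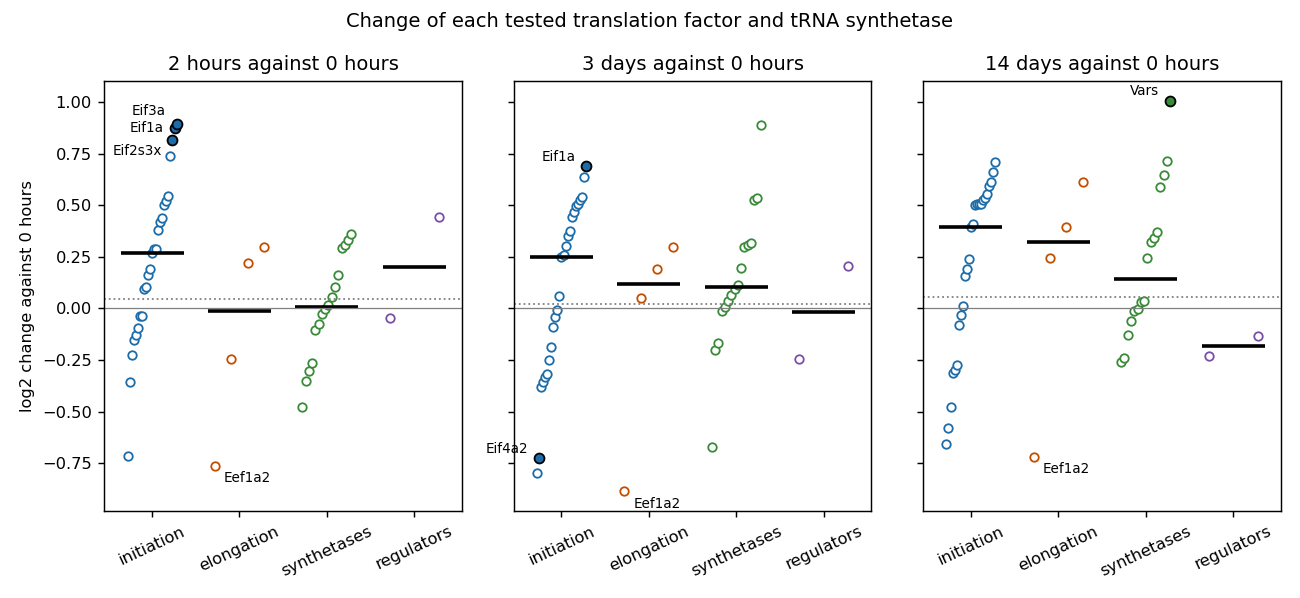
Log2 change against 0 hours of each of the 47 tested members at 2 hours, 3 days and 14 days, grouped by role. Each circle is a gene, filled where the limma adjusted p was under 0.05; bars are role medians and the dotted line is the median of all 3477 genes. Eif3a, Eif1a and Eif2s3x are filled at 2 hours, Eif1a and Eif4a2 at 3 days and Vars at 14 days, and Eef1a2 is the lowest elongation factor in each panel.

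Among initiation factors, Eif1a, Eif3a and Eif2s3x rose at 2 hours. Eif3a encodes the largest subunit of eIF3, the complex that holds the small subunit ready for the messenger. Its intensity was 384.0, 474.4 and 441.0 at 0 hours, 842, 729 and 841 at 2 hours, 720, 404 and 601 at 3 days, and 611, 734 and 644 at 14 days. The 2 hours values lay above all others except for the highest 14 days value, which just exceeded the lowest of them. All values at 0 hours lay under the filter intensity of 475.55. Eif3a was therefore tested only because of its later values, and the p-values take no account of this. Eif3a rose 1.86-fold at 2 hours (log2 change 0.89 ± 0.21, limma adjusted p = 0.0244). At 3 days the change was 0.37 ± 0.21 with overlapping groups. At 14 days it was 0.61 ± 0.21 (adjusted p = 0.0755) without overlap. The call at 2 hours was lost without 0 hours replicate 1 or 3 or without 2 hours replicate 1 or 3, with adjusted p up to 0.0967.

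Eif1a encodes the factor that opens the small subunit for scanning along the messenger. Its intensity was 362, 365 and 289 at 0 hours, 662, 635 and 559 at 2 hours, 419.9, 531 and 718 at 3 days, and 378, 376 and 443 at 14 days. All 9 later values were above the 3 at 0 hours. All values at 0 hours and 14 days lay under the filter intensity of 475.55. The gene was therefore tested only because of its values at 2 hours and 3 days, and the p-values take no account of this. Eif1a rose 1.83-fold at 2 hours (0.87 ± 0.21, adjusted p = 0.0249) and 1.61-fold at 3 days (0.69 ± 0.21, adjusted p = 0.0425), and at 14 days the log2 change was 0.24 ± 0.21 (adjusted p = 0.49). A dimmer probe set for the gene gave changes of 0.86, 0.32 and 0.13. The 2 hours call was lost without 0 hours replicate 3 or without any 1 of the 2 hours arrays (adjusted p up to 0.0829). The 3 days call remained only without 0 hours replicate 2 or 3 days replicate 1, rose to an adjusted p of up to 0.208 without other arrays, and was 0.0633 with the replicate number as a block. With the Gapdh ratio as a covariate the 3 days change was −0.064, but that ratio moved with time and the fit cannot separate them.

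Eif2s3x (X:94188709-94212651) encodes the X-linked gamma subunit of eIF2, which carries the initiator tRNA, and its promoter and start are printed above. Its intensity was 2957, 3260 and 1884 at 0 hours, 4414, 5027 and 4463 at 2 hours, 4314, 3689 and 3392 at 3 days, and 4562, 3749 and 3664 at 14 days. Every later array exceeded every 0 hours array. Eif2s3x rose 1.76-fold at 2 hours (0.82 ± 0.21, adjusted p = 0.0396). The changes of 0.52 ± 0.21 at 3 days and 0.60 ± 0.21 at 14 days were not called (adjusted p = 0.115 and 0.087). From 2 hours to 3 days, where the Y-linked copy was at the floor on all arrays compared, the change was −0.29 ± 0.21 (adjusted p = 0.424), although the groups did not overlap. The 2 hours call was lost in 8 of 12 fits with 1 array left out, those without 0 hours replicate 1 or 3, any 2 hours array, 3 days replicate 2, or 14 days replicate 2 or 3 (adjusted p up to 0.122). The X and Y copies are near-identical paralogs, so how each probe set divides their signal is uncertain.

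Eif1ax (X:159372178-159389621), the X-linked relative of Eif1a, had log2 changes of 0.50, 0.49 and 0.66, each ± 0.23 (adjusted p = 0.214, 0.166 and 0.0783), with overlapping groups. Its second probe set gave 0.31, −0.37 and −0.17, so the probe sets disagreed in sign at 3 and 14 days. The sequences of Eif1a and Eif1ax are close enough that their probe sets may share signal.

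Eif4a2, a second form of the RNA helicase that unwinds the start of the messenger, was the 1 member that fell at 3 days. Its intensity was 3854, 2815 and 4095 at 0 hours, 2917, 3127 and 3031 at 2 hours, 1930, 2416 and 2110 at 3 days, and 1694, 2459 and 2721 at 14 days. All 6 values at 3 and 14 days lay under the 6 earlier ones. Eif4a2 fell 1.65-fold at 3 days (log2 change −0.72 ± 0.21, adjusted p = 0.0371), and its changes were −0.23 ± 0.21 at 2 hours and −0.66 ± 0.21 at 14 days (adjusted p = 0.063). The common form Eif4a1 ran from 543 to 721 at 0 hours and from 760 to 1027 at 14 days, with a change of 0.50 ± 0.20 (adjusted p = 0.124) and no overlap. The Eif4a2 call was lost in 7 of 12 fits with 1 array left out, those without 0 hours replicate 1 or 3, 2 hours replicate 3, any 3 days array or 14 days replicate 2 (adjusted p up to 0.114).

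**Figure D3:**
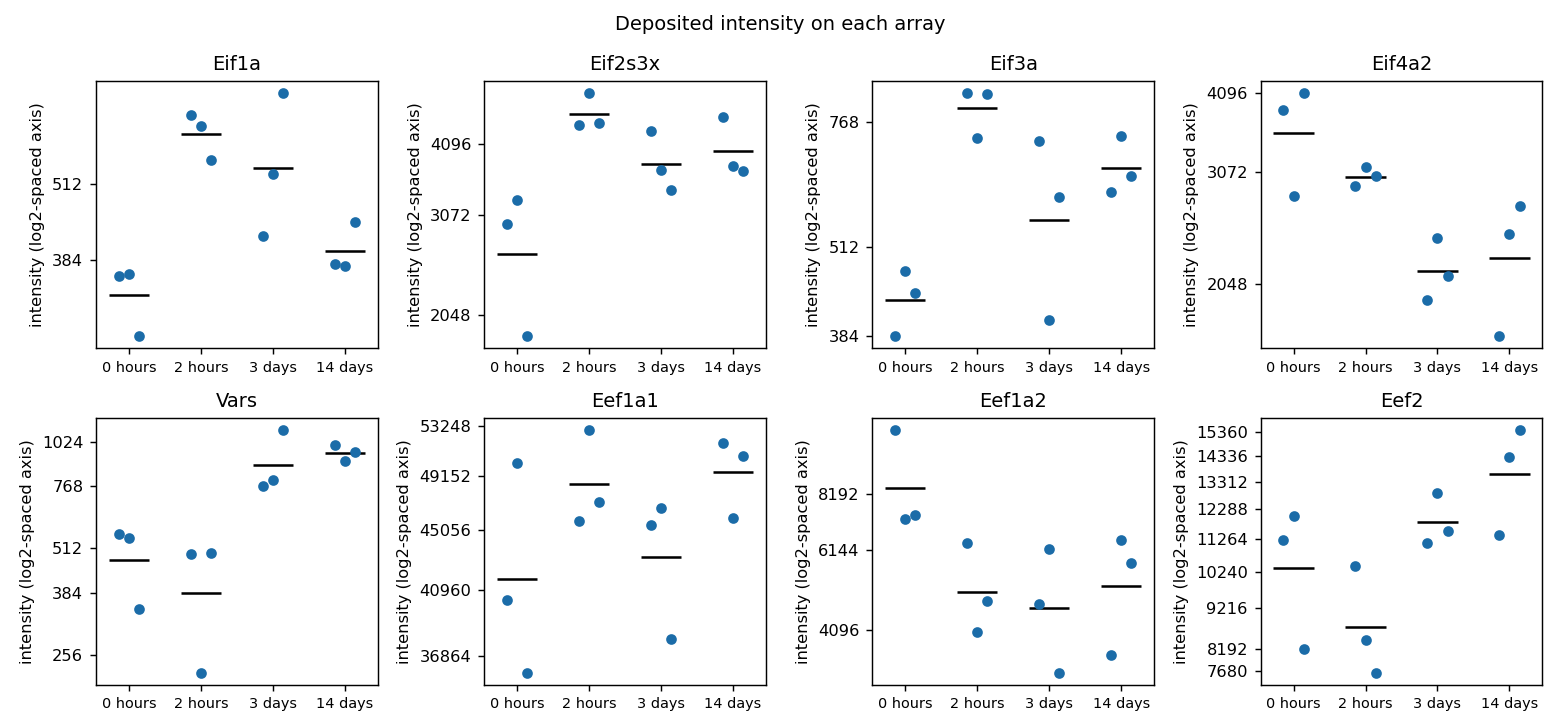
Deposited intensity (log2-spaced axis, a different range for each gene) of 8 members on each of the 12 arrays by time point; points are arrays and bars are means of the log2 values. Eif1a, Eif2s3x and Eif3a are higher on the 3 arrays of 2 hours than on those of 0 hours, Eif4a2 is lower at 3 and 14 days, and Vars is higher at 3 and 14 days than at both earlier times.

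The remaining initiation factors did not pass the test. Of the 9 eIF3 subunits tested, 1 was called at 2 hours and 0 at 3 or 14 days. At 14 days 6 of the 9 were higher than at 0 hours without overlap, with a median log2 change of 0.51. They were Eif3a, Eif3c, Eif3d, Eif3k, Eif3l and Eif3m, with changes from 0.39 to 0.61. Eif3l, for example, read 2263, 3217 and 1985 at 0 hours and 3762, 3247 and 3515 at 14 days (0.52 ± 0.19, adjusted p = 0.0917). In contrast, Eif3b, Eif3e and Eif3j1 overlapped between those times.

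Over all 25 initiation factors, 11 (44%) were higher at 14 days than at 0 hours without overlap, as were 17 of all 47 members (36.2%), where 17.4% of all genes were. At 2 hours the shares were 4 of 25 (16%) for initiation factors and 13.6% for all genes. Without 0 hours replicate 3 the median change of the initiation factors at 14 days was 0.23 in place of 0.39. Without 0 hours replicate 2 limma called 8 members at 14 days, 7 higher and 1 lower, where 14% of all genes were called. Those higher were Eif1ax, Eif2s3x, Eif3d, Eif3l, Eif6, Qars and Vars, and the lower 1 was Eif4a2. That was the highest count with 1 array left out. Without 0 hours replicate 1 or 3 limma called 0 members at 14 days, where 4.52% and 10.3% of all genes were called.

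Among eIF2 and its exchange factor eIF2B, 5 genes were tested. Eif2b2, the beta subunit of eIF2B, had the lowest change of the 5 at each later time. Its intensity was 496, 554 and 868 at 0 hours, 481, 328 and 344 at 2 hours, 444, 415 and 248 at 3 days, and 344, 483 and 434 at 14 days. All later values were lower than those at 0 hours, the highest of which came from replicate 3. Its log2 changes were −0.71, −0.80 and −0.58, each ± 0.27, and none was called (adjusted p = 0.134, 0.0635 and 0.178). Eif2b5 stood at 825 and 820 in 0 hours replicates 1 and 2 and at 97.2, under the floor, in replicate 3. The later values were 638 to 812, so its change against 0 hours depended on that array. Eif6, which keeps the large ribosomal subunit from joining too early, read 806, 1172 and 790 at 0 hours and 1693, 1248 and 1541 at 14 days. Its change at 14 days was 0.71 ± 0.23 (adjusted p = 0.0592), with no overlap. Eif3m reached 0.74 ± 0.24 at 2 hours (adjusted p = 0.0873) with overlapping groups. The steadiest initiation factor was Eif1b, whose changes against 0 hours stayed within a 95% bound of 1.39-fold.

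Of the 4 tested elongation factors, none passed the test at any time. Limma gave 0 calls for them, and 0 higher and 1 lower at an unadjusted p under 0.05 at 2 hours and at 3 days, and 1 higher and 1 lower at 14 days. In either direction 22.3%, 29.8% and 28% of all genes reached that p. The gene lower at each time was Eef1a2. Eef1a1 (9:78478453-78481724), the common form of the factor that delivers charged tRNA, was very bright. Its intensity was 40262, 50150 and 35863 at 0 hours, 45768, 52927 and 47126 at 2 hours, 45472, 46671 and 37832 at 3 days, and 51843, 45985 and 50745 at 14 days. The groups overlapped throughout. Its log2 changes were 0.22, 0.05 and 0.25, each ± 0.18, with 95% intervals from −0.17 to 0.61, −0.34 to 0.44 and −0.14 to 0.64.

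Eef1a2 (2:181141758-181157015), the form of muscle and nerve, was lower at every later time without overlap. Its intensity was 11349, 7215 and 7354 at 0 hours, 6392, 4051 and 4744 at 2 hours, 4670, 6195 and 3293 at 3 days, and 3610, 6463 and 5764 at 14 days. The lowest 0 hours array stood above the highest later array. The log2 changes were −0.76, −0.89 and −0.72, each ± 0.29, and none was called (limma adjusted p = 0.133, 0.0551 and 0.118). The 3 days change was called after quantile normalization (−0.95, adjusted p = 0.0373). It was also called without 3 days replicate 2 and without 14 days replicate 1 (adjusted p = 0.0405 and 0.0434).

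The difference between the forms removes any factor common to an array. The log2 intensity of Eef1a2 minus that of Eef1a1 changed by −0.98 at 2 hours, −0.94 at 3 days and −0.97 at 14 days against 0 hours. The groups did not overlap in any of the comparisons with 0 hours. The exact two-sided permutation p was 0.1 each, the smallest that 3 against 3 arrays can give. From 2 hours to 3 days this difference changed by 0.05 and from 3 to 14 days by −0.03 (exact permutation p = 0.9 and 1). The proteins of both forms are highly alike, and probe sets of such close copies may share signal.

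Skeletal muscle markers fell over the same times. Of 28 tested markers, of 34 listed, 0 rose and 3 fell at 2 hours, 18 fell at 3 days and 16 at 14 days. Their summed intensity ran from 401756 to 663595 at 0 hours, from 363372 to 412190 at 2 hours, from 138151 to 309940 at 3 days and from 189314 to 278302 at 14 days, and 0 of the 28 were at the floor on all arrays. Their mean log2 signal changed by −0.55, −1.14 and −0.98. Eef1a2 relative to that mean changed by −0.21 at 2 hours, 0.26 at 3 days and 0.26 at 14 days (exact permutation p = 0.4, 0.4 and 0.2). With the marker mean as a covariate the log2 changes of Eef1a2 were −0.31, 0.05 and 0.08, so the direction turned at 3 and 14 days. The marker means at 0 hours (12.88 to 13.75) lay above those of all later arrays. That fit therefore cannot separate the markers from time.

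**Figure D4:**
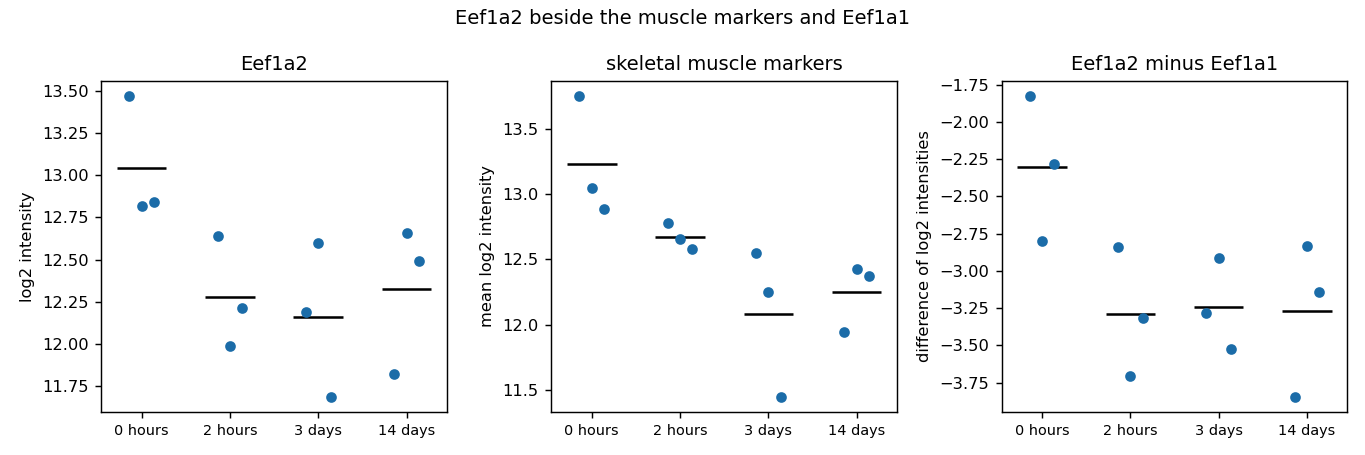
Left, log2 intensity of Eef1a2; middle, mean log2 intensity of the 28 skeletal muscle markers; right, log2 intensity of Eef1a2 minus that of Eef1a1. Points are the 12 arrays by time point and bars are group means. In each panel the 0 hours arrays are the highest, and the right panel shows later means that are 0.94 to 0.98 lower than at 0 hours.

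Eef2, which moves the ribosome along by a codon, read 11251, 12037 and 8193 at 0 hours, 10410, 8402 and 7651 at 2 hours, 11135, 12878 and 11541 at 3 days, and 11420, 14306 and 15467 at 14 days. Every 3 days and 14 days array stood above every 2 hours array. Its change from 2 hours to 3 days was 0.44 ± 0.20 (adjusted p = 0.199), and its changes against 0 hours were −0.24, 0.19 and 0.40. Eef1d, part of the complex that recharges elongation factor 1 alpha, changed by 0.30, 0.30 and 0.61, each ± 0.24, with no overlap at 14 days (adjusted p = 0.107). Without Eef1a2, the 3 remaining elongation factors had medians of 0.22, 0.19 and 0.40.

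Among the 16 synthetases tested, limma called Vars only. It was called at 14 days against 0 hours (6.25% of the synthetases, 10.2% of all genes). It was also called from 2 hours to 3 days (6.25% of the synthetases, 9.4% of all genes). Vars (17:35000907-35016329) charges the tRNA of valine, and its protein is known to associate with the elongation factor 1 complex. Its intensity was 562, 546 and 345 at 0 hours, 495, 228 and 498 at 2 hours, 769, 796 and 1105 at 3 days, and 999.6, 903 and 955 at 14 days. All 6 values at 3 and 14 days exceeded all 6 earlier values. Vars rose 2.01-fold at 14 days against 0 hours (1.01 ± 0.29, adjusted p = 0.039), and its change at 3 days was 0.89 ± 0.29 (adjusted p = 0.0549). At 2 hours it was −0.31 ± 0.29.

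Between later times, Vars rose 2.29-fold from 2 hours to 3 days (1.20 ± 0.29, adjusted p = 0.019) and 2.48-fold from 2 hours to 14 days (1.31 ± 0.29, adjusted p = 0.0102). The last of these comparisons was added after the data had been seen, and called 12.3% of all genes. Of the 47 members, 1 rose and 1 fell in it. Its calls were not examined with arrays left out or under other settings. With only the 6 arrays of 2 hours and 3 days in the fit, the change of 1.20 was not called (adjusted p = 0.0578). The call from 2 hours to 3 days was also lost without 2 hours replicate 2 (0.82, adjusted p = 0.0804), whose value of 228 was the lowest of the 12, without 3 days replicate 2 (1.27, adjusted p = 0.0512) and without 3 days replicate 3 (1.03, adjusted p = 0.1). The 14 days call was lost without 0 hours replicate 1 or 3, 3 days replicate 2, or any 14 days array (adjusted p up to 0.117). With the Gapdh ratio as a covariate the change was 0.17 at 14 days and 0.72 from 2 hours to 3 days. Neither was called (adjusted p = 0.985 and 0.909). The ratio moved with time, so RNA quality and time cannot be told apart in that fit.

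Over the same step from 2 hours to 3 days, 16 of 18 tested monocyte and macrophage markers rose. Their summed intensity was 18396 to 32245 at 2 hours, 56266 to 85328 at 3 days and 32321 to 36222 at 14 days. Of these 18 markers, 0 were at the floor on all arrays, and 9 fell from 3 to 14 days, while Vars changed by 0.12 ± 0.29 over that step. Keratinocyte markers gave 4 higher and 1 lower of 15 over the step from 2 hours to 3 days. All 3 tested neutrophil markers, of 14 listed, rose over that step, with a median log2 change of 3.08. From 3 to 14 days 1 of these 3 fell. Fibroblast markers gave 2 higher and 0 lower of 14 from 2 hours to 3 days. The part of any of these cell types in the change of Vars was not tested.

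The other synthetases gave the following values. Cytosolic synthetases, 13 tested, had medians of −0.0019, 0.19 and 0.32 at the 3 times, and 4 of them were higher at 14 days at an unadjusted p under 0.05, as were 16.9% of all genes tested. Besides Vars these were Qars, Rars and Sars. Qars, for glutamine, read 1565, 2002 and 1096 at 0 hours and 2508, 2048 and 2562 at 14 days (0.65 ± 0.22, adjusted p = 0.0672). Rars, for arginine, read 726, 902 and 827 at 0 hours, and every array at 3 and 14 days was above these. Its changes were 0.54 ± 0.20 at 3 days and 0.59 ± 0.20 at 14 days (adjusted p = 0.0796 and 0.0672). Sars, for serine, changed by 0.71 ± 0.24 at 14 days (adjusted p = 0.0725), also without overlap.

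Yars, for tyrosine, went the other way at 3 days. It read 610, 587 and 1065 at 0 hours, 702, 597 and 863 at 2 hours, and 422, 576 and 387 at 3 days. The 3 days arrays lay below all 6 earlier ones, and the changes were −0.67 ± 0.26 against 0 hours and −0.65 ± 0.26 against 2 hours (adjusted p = 0.102 and 0.144). The 3 tested synthetases with symbols ending in 2, which charge mitochondrial tRNAs, had medians of 0.016, 0.0091 and −0.0050. Among them Sars2 changed by −0.48 at 2 hours and was called there without 0 hours replicate 2 (−0.86, adjusted p = 0.0279), and Rars2 stayed within a 95% bound of 1.39-fold. The synthetases whose promoters hold TGATGNAA had changes of both signs at 2 hours, and whether they move together was not tested. At 2 hours the changes of Aars, Gars, Iars, Tars and Yars were −0.35, −0.0019, 0.11, 0.29 and −0.03, and none was called.

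Regulators were mostly too dim to test. The eIF2 kinases Eif2ak2, Eif2ak3 and Eif2ak4, which sense viral RNA, unfolded protein and missing amino acids, lay under the floor on all 12 arrays. Eif4ebp1, which holds back the cap-binding factor, read 559, 796 and 621 at 2 hours, 654, 516 and 498 at 3 days, and 386, 448 and 391 at 14 days. It fell 1.6-fold from 2 hours to 14 days (log2 change −0.68 ± 0.20, adjusted p = 0.0392). This was in the added comparison, whose calls were not examined under other settings. All its values at 14 days lay under the filter intensity of 475.55. Eif4ebp1 was therefore tested only because of its earlier values, and the p-value takes no account of this. Against 0 hours its changes were 0.44, 0.21 and −0.23, each ± 0.20. Its relative Eif4ebp2 changed by −0.05, −0.24 and −0.13. The other members not tested were Eef1akmt1, Eef1b2, Eif2a, Eif2s2, Eif2s3y, Eif3f, Eif4e2, Eif5b, Fars2, Hars and Tars2. In the fit without the filter Eif2s3y was the 1 gene of these 14 with an adjusted p under 0.05.

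Neighbouring parts of the pathway showed a few called genes. Pabpc1, the poly(A)-binding protein that joins the messenger's ends, rose 2.27-fold at 3 days (1.18 ± 0.21, adjusted p = 0.0021) and 2.48-fold at 14 days (1.31 ± 0.21, adjusted p = 0.0020), as 1 of 5 poly(A)-binding and cap-associated genes tested. At 2 hours its change was 0.75 ± 0.21 (adjusted p = 0.0514). Tsfm, a mitochondrial elongation factor, fell by 0.86 on the log2 scale at 3 days (SE 0.23, adjusted p = 0.024), as 1 of 2 tested. Of 4 termination and recycling factors, limma called 0 at any time, with medians of 0.58, 0.14 and 0.34. At an unadjusted p under 0.05 they gave 3, 1 and 1 higher against 0 hours, and 2 lower from 2 hours to 3 days. Of all 3477 genes tested, 486, 609 and 588 were higher and 432 were lower in these comparisons.

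Of 13 integrated stress response genes, 1 rose at 2 hours, 3 rose at 3 days, and 2 rose and 1 fell at 14 days, with medians of 0.29, 0.40 and 0.35. Of all genes tested, 5.67%, 13.3% and 10.2% were called at these times. Ppp1r15b, a subunit of the phosphatase that reverses eIF2 phosphorylation, rose at 2 hours (1.01 ± 0.22, adjusted p = 0.0171) and at 3 days (0.86 ± 0.22, adjusted p = 0.0192). Its inducible relative Ppp1r15a rose at 3 days (0.77 ± 0.20, adjusted p = 0.0216) and at 14 days (0.68 ± 0.20, adjusted p = 0.045). The amino acid transporter gene Slc7a5 rose at those times (1.01 ± 0.30 and 1.02 ± 0.30, adjusted p = 0.0392 and 0.0451). The stress-induced gene Nupr1 fell by 0.73 at 14 days. Atf4 itself changed by −0.09, −0.12 and −0.56, each ± 0.19, and was not called. Of 7 TOR pathway genes and 2 scaffold proteins of the multisynthetase complex, limma called 0 in any comparison. At an unadjusted p under 0.05, 1 and 2 TOR pathway genes were lower at 2 hours and 3 days, and 1 scaffold gene was lower at 14 days. Of all 3477 genes tested, 289, 428 and 387 were lower at those times.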

How the data were processed

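The authors deposited 1 linear intensity per probe set and array, without detection calls, per the file headers. Software, scaling and the choice of probe sets: not given in the sources used here. Of 7275 probe sets, 27 controls were left out. The platform annotation gave 1 gene for 6551 probe sets and several for 251. Trimmed means of the arrays deviated by at most 8.56%, and no further scaling was applied. The largest deviation was that of 0 hours replicate 3, at 818.2, where the other arrays ran from 885.16 to 909.64. A low array at 0 hours raises changes against that time. After quantile normalization the median change of all genes at 14 days was 0.0048 in place of 0.053. That of the members was 0.2 in place of 0.245.

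The floor was the 25th percentile of all values pooled (225.375), and analysis was on log2 intensity. A probe set had to exceed the pooled median on 3 or more arrays, and the brightest per gene was used (3477 genes). Limma 3.58.1 (R 4.3.3) fitted all 12 arrays with 1 coefficient per time point, with 8 residual and 6.64 prior degrees of freedom, and Benjamini-Hochberg adjustment over all genes. Errors after ± are standard errors of this fit with 3 arrays per time, unless SD is named. A fold is 2 to the power of the log2 change, and understates changes of values near the floor. The number of arrays limits the precision. Single differences were tested by exact permutation.

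The genes and lists were chosen with earlier results of these data known. Full statistics were given for called members, Eef1a1, Eef1a2 and the 2 largest changes per role. The comparison of 14 days with 2 hours and the look at sex-chromosome genes were added after seeing the data. Arrays with the same repeat number did not deviate together (2 of 18 pairs correlated over 0.1, median −0.066), so the numbers were not taken as pairs. Data were simulated from these arrays (3477 genes), with some genes shifted by 1 or 2 on the log2 scale. The test found 71% of genes shifted by 1 at 2 hours, 76% at 3 days and 77% at 14 days. Of its calls, 2.92%, 8.38% and 5.49% were false. The simulated noise was independent and normal, without a deviating array. Shifts under 1, the size of most member changes, were not simulated, so these shares do not apply to them. Alternatives were other normalizations, floors, filters, probe sets, variance models, covariates, a replicate block, and each array left out. Promoters came from RefSeq.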

Additional observations from a re-analysis of the deposited data

Results flagged for a closer look

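Xist failed the filter and entered no test with it, yet its signal on the later arrays stood above that of the 0 hours arrays. Its median intensity over the 9 later arrays was 277.3, against at most 52.3 at 0 hours. On 3 of the 9 later arrays it lay under the floor. In the fit without the filter its log2 changes were 0.41, 0.54 and 0.44, and limma called none (adjusted p = 0.644, 0.451 and 0.575). The X-linked gene Kdm6a, also under the filter, changed by 0.87 at 2 hours, 0.49 at 3 days and 0.75 at 14 days in that fit (limma adjusted p = 0.0252, 0.104 and 0.0393). Sex and time cannot be told apart in the comparisons with 0 hours.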

How the results depend on the processing

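The counts of called members were small and moved with most settings. Leaving out 1 array at a time gave 0 to 5 at 2 hours, 0 to 5 at 3 days and 0 to 8 at 14 days. It gave 0 to 2 from 2 hours to 3 days, 0 from 3 to 14 days and 1 to 10 by the F-test. The highest counts against 0 hours came without 0 hours replicate 2. The share of all genes called moved as well, from 2.07% to 9.09%, 5.12% to 16% and 3.42% to 14% against 0 hours. It was 3.22% to 11.8% from 2 hours to 3 days and 1.7% to 3.65% from 3 to 14 days. For the F-test and the settings below that share is not given, so their counts have no background. The replicate block gave 1 in place of 2 at 3 days against 0 hours, and it changed no other count beyond 1.5 times. Restricting the fit to the times compared gave 0 at 2 hours, 0 at 3 days and 0 from 2 hours to 3 days. Array weights gave 0 at 2 hours, 1 at 3 days, 0 at 14 days, 8 from 2 hours to 3 days, 2 from 3 to 14 days and 8 by the F-test. With the Gapdh ratio as a covariate the counts were 1 at 2 hours, 0 at 3 days, 0 at 14 days, 0 from 2 hours to 3 days and 1 by the F-test, and with the muscle marker mean 1, 0, 0, 0 and 0. The filter at the 75th percentile gave 1 at 2 hours, 3 at 14 days and 0 from 2 hours to 3 days, and no filter gave 1 at 3 days and 0 from 2 hours to 3 days. Without the filter the 1 call at 3 days was Eif2s3y, which was also called at 14 days. Eif1a and Eif4a2 lost their 3 days calls (limma adjusted p = 0.0694 and 0.0682). Vars lost its calls at 14 days and from 2 hours to 3 days (adjusted p = 0.116 and 0.0821). The 2 hours calls of Eif3a and Eif2s3x were lost as well (adjusted p = 0.0508 and 0.0692). Median scaling gave 1 at 3 days and 0 at 14 days, quantile normalization 2 at 14 days, trended and robust variance 2 at 14 days and 5 by the F-test, and the floor at the 40th percentile 5 by the F-test.

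The median of the initiation factors at 14 days was 0.19 with no filter and 0.24 with the probe set of highest variance. At 3 days it was −0.0067, 0.060 and, with array weights, 0.092. From 2 hours to 3 days it was 0.035 with the filter at the 75th percentile and 0.0031 with the Gapdh covariate. The synthetase medians with that filter were 0.34, 0.42 and 0.62 against 0 hours and 0.20 from 3 to 14 days. The elongation median was 0.11 at 14 days with the Gapdh covariate and 0.20 from 2 hours to 3 days with the muscle covariate. With 1 array left out, the initiation medians were 0.15 to 0.31, 0.11 to 0.29 and 0.23 to 0.43 against 0 hours, −0.14 to −0.05 from 2 hours to 3 days and 0.05 to 0.17 from 3 to 14 days. The elongation medians were −0.15 to 0.11, −0.02 to 0.24, 0.18 to 0.44, −0.18 to 0.07 and 0.14 to 0.33 in the same order. The synthetase medians were −0.066 to 0.15, 0.09 to 0.19, 0.10 to 0.21, 0.05 to 0.11 and 0.04 to 0.13. Eef1a2 minus Eef1a1 changed by −1.23 to −0.75, −1.18 to −0.70 and −1.22 to −0.68.

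Directions that turned were those of uncalled changes, except that of Eif1a at 3 days. With the muscle covariate Eef1a2 stood at 0.049 (3 days) and 0.078 (14 days), Eif4ebp1 at 0.092 (14 days), and Eif4ebp2 at 0.23 and 0.27. With the Gapdh covariate Eif1a stood at −0.064 (3 days) and −0.67 (14 days), Sars at −0.15 and −0.10, Sars2 at −0.52 (3 days), and Eif2b2, Eif4ebp1 and Yars at 0.077, 0.040 and 0.28 (14 days). The other probe set of Eif1ax gave −0.37 and −0.17. Both covariates moved with time, so these fits cannot separate either from it. The cause was not tested.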
